A study of Mus musculus with 6 samples.

Results

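Cysteine cathepsins and the proteins that inhibit them were examined in mouse Neuro2A (N2A) cells, a neuroblastoma line labelled as neuroblasts of brain. The group comprised 10 of the 55385 genes in the deposited table, matched by gene symbol: the cathepsin genes Ctsb, Ctsl, Ctsz, Ctsh, Ctsc and Ctsf, the CTLA2 genes Ctla2a and Ctla2b, and the cystatin genes Cst3 and Cstb. It was assembled by protein family and also chosen by the higher FPKM of Ctla2a in si-circCpsf6 than in si-NC, so the differences of its genes between those groups are given as a description. FPKM are fragments counted per length of transcript and per depth of library, which allows levels of different genes to be compared. All cells were transfected with a small interfering RNA (siRNA) at 100 nM, either si-NC (n = 3) or si-circCpsf6 (n = 3), which targets a circular RNA named for the gene Cpsf6. No untransfected cells were analysed here, and the labels do not say whether the replicates were separate cultures, so the spread between them may be technical.

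Cysteine cathepsins are papain-like proteases that are made as inactive precursors, sorted to lysosomes and activated there by removal of a propeptide that blocks the active site. Cystatins bind the active site of the mature enzymes, stefins such as cystatin B inside the cell and cystatin C after secretion. CTLA2 proteins resemble the free propeptide of a cathepsin L-like protease and inhibit such enzymes, and were first described in activated cytotoxic T lymphocytes.

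Ctla2a and Ctla2b lie on the minus strand of chromosome 13 and are close copies, which matters for how their values can be read. In GENCODE M21 (GRCm38), Ctla2a (ENSMUSG00000044258) covers chr13:60934155-60936625 and Ctla2b (ENSMUSG00000074874) chr13:60895350-60897447. Their annotated starts were 39.2 kb apart, and Ctsl starts 3434.3 kb from Ctla2a on the same chromosome. The 250 bases upstream of each start are shown because they show how alike the copies are. They come from RefSeq (GRCm38.p6), Ctla2a from chr13:60936626-60936875 and Ctla2b from chr13:60897448-60897697, both on the minus strand, printed 5′ to 3′ and ending at the base before the start. Capitals mark TGACTCA, a motif bound by AP-1 factors.
Ctla2a: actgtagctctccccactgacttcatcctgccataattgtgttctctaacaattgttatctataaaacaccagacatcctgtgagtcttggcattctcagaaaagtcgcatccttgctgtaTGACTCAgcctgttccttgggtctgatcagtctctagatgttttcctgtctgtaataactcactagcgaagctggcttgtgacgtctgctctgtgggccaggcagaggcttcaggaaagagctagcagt
Ctla2b: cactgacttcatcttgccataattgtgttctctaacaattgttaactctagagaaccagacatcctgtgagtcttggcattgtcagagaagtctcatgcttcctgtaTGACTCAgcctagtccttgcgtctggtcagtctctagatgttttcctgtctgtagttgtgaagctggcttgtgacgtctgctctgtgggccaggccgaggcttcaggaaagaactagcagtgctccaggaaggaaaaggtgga
Of 228 aligned bases, 208 were identical (91.2%). The motif began 129 bases upstream of Ctla2a and 143 bases upstream of Ctla2b. Searched on both strands of windows of 300 bases (250 before to 50 after a start), it stood in 5.2% of 32851 RefSeq windows, and in those of no other gene among the 7 in the group that had one (Ctla2a, Ctla2b, Ctsl, Ctsz, Ctsc, Ctsf and Cst3). The motif CACGTG, the E-box at the core of the element bound by the lysosomal regulator TFEB, was found in 7.15% of all windows and, within the group, in those of Ctsl (236 bases upstream of the RefSeq start) and Ctsf (79 bases upstream). The RefSeq start of Ctsl (64370520) lies inside the GENCODE span of that gene, which begins at 64370890 on the minus strand. The Ctsl motif lies inside that span too. Such matches describe the letters of a window and do not show binding.

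The longest annotated coding sequences of the copies were 96.2% identical over 339 aligned bases. Of 2341 distinct stretches of 50 bases in Ctla2a transcripts, 22.7% were also found in transcripts of Ctla2b or of the overlapping genes Gm49391, Gm49392 and Gm49393. For Ctla2b this share was 69.0% of 1810. Most of it was shared with Gm49391 (56.5%), whose span covers Ctla2b, while 14.8% were found in Ctla2a transcripts. Values of Ctla2b are therefore uncertain, because the sources used here do not say how the authors assigned such reads, and for Ctla2a the exposed share was smaller. No stretch of 50 bases was shared with Ctsl, Ctsll3, Ctsq or Ctsj.

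Among markers of neuroblasts and the sympathoadrenal lineage, the transcription factor gene Hand2 stood between 116.14 and 179.48 FPKM over the 6 libraries and did not pass the test between groups. Chga, which encodes the granule protein chromogranin A, fell from 233.6 ± 12.97 to 110.04 ± 22.5 FPKM (SD, n = 3; limma adjusted p = 0.0335). Of 12 T cell and mast cell markers, 7 were listed at 0 in every library, among them Cd3e, Cd3d, Gzmb and Cpa3. The list summed to 3.79 to 6.26 FPKM in si-NC and 6.21 to 12.09 in si-circCpsf6, and nearly all of it was the kinase gene Lck (3.71 to 5.98 and 6.11 to 12.06 FPKM). The Lck groups did not overlap, and Lck did not pass the test (log2 fold change 0.83, limma adjusted p = 0.134). Macrophage markers, of which none of 11 was at 0 throughout, summed to 1.75 to 3.79 and 2.26 to 3.23 FPKM, with overlapping groups. The highest were Cd68 (0.76 to 1.21 and 0.44 to 1.01 FPKM) and C1qb (0.12 to 0.89 and 0.2 to 0.84 FPKM), Tyrobp did not overlap (0 to 0.35 and 0.44 to 0.74 FPKM), and Cx3cr1 was at most 0.01 and Ptprc at most 0.02 FPKM. Endothelial markers (7, none at 0 throughout) summed to 0.84 to 1.26 and 1.6 to 3.28 FPKM, sums that did not overlap. Pecam1 was at 0.96, 1.06 and 0.59 FPKM in si-NC and 2.04, 0.67 and 1.62 FPKM in si-circCpsf6 (limma adjusted p = 0.491), and Tek, too low to be tested, at 0.21, 0.14 and 0.15 and at 0.42, 0.92 and 1.47 FPKM, higher in each si-circCpsf6 library. The defining endothelial genes Cdh5 and Kdr were at most 0.1 and 0.01 FPKM. Fibroblast markers (7, none at 0 throughout) summed to 2.54 to 10.56 and 5.53 to 11.55 FPKM, and 2 of them were tested. Pdgfrb rose from 1.12 ± 0.672 to 4.48 ± 0.351 FPKM (SD, n = 3, limma adjusted p = 0.0455). Col1a1 did not pass (limma adjusted p = 0.999), at 4.53, 0.13 and 0.86 FPKM in si-NC and 3.69, 0.16 and 1.13 in si-circCpsf6. Pdgfra, not tested, was at 0.26 to 0.6 and 0.62 to 0.85 FPKM, without overlap. Col1a2, Col3a1, Dcn and Lum, also not tested, overlapped between groups. Their means were lower in si-circCpsf6 for Col1a2 and Col3a1 and higher for Dcn and Lum. The part of these cell types in the results below was not tested. In bulk RNA, more cells expressing a gene and more RNA per cell cannot be told apart.

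Among the inhibitors, Ctla2a, which encodes CTLA2 alpha, was at 5.15, 4.85 and 3.99 FPKM in si-NC and at 18.23, 20.8 and 16.61 FPKM in si-circCpsf6. The groups did not overlap, and the lowest si-circCpsf6 library exceeded the highest si-NC library by more than any spread within a group. Means were 4.66 ± 0.602 and 18.5 ± 2.11 FPKM (SD, n = 3 each), a ratio of 3.98. The log2 fold change fitted to log2(FPKM + 1), a scale that shrinks differences between low values, was 1.79 with a standard error of 0.145. Ctla2a was called higher (limma, Benjamini-Hochberg adjusted p under 0.05), as were 0.902% of all 12974 genes tested, while 0.786% were called lower. It was the only one of the 8 genes of the group with a mean of at least 1 FPKM to be called in either direction. Because Ctla2a was picked for this difference, no more is read from the call, which was lost without si-NC replicate 3 (log2 fold change 1.70).

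Ctla2b, which encodes CTLA2 beta, stood at 1.89, 0.86 and 0.88 FPKM in si-NC and at 1.96, 1.96 and 3.85 FPKM in si-circCpsf6. The lowest si-circCpsf6 values lay just above the highest si-NC value. The log2 fold change was 0.69 ± 0.269 (SE) and was not called. Gm49391, an annotated gene that spans nearly all of Ctla2a and all of Ctla2b, was at 0.45, 0.81 and 0 FPKM in si-NC and at 1.61, 1.07 and 3.33 FPKM in si-circCpsf6 (limma adjusted p = 0.138). Gm49392, which overlaps Ctla2b and extends beyond it, was at 0.53 to 1.14 and 1.22 to 2.36 FPKM (limma adjusted p = 0.189), and Gm49393 reached at most 0.37 FPKM in any library. In si-circCpsf6 replicate 3, Ctla2a had its lowest value of that group and Ctla2b and Gm49391 their highest.

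Summed over Ctla2a, Ctla2b and the 3 overlapping genes, among which reads could be divided differently, the libraries held 8.71, 7.05 and 6.18 FPKM in si-NC and 23.24, 25.78 and 26.15 FPKM in si-circCpsf6. These sums did not overlap, with a ratio of means of 3.43. Ctla2a, picked for its difference, was the largest part of them, so their separation is no second support. FPKM are scaled by transcript length, so a sum can also depend on how reads were divided. Ctla2a made up 59.1% to 68.8% of the sum in si-NC and 63.5% to 80.7% in si-circCpsf6, ranges that overlapped. Within 100 kb of the pair, no other gene with an identifier in the table averaged 1 FPKM. Tpbpa and Ctsj, which lie on the side of Ctla2a away from Ctla2b, were listed at 0 in every library, and the placental cathepsin gene Ctsq was at 0.74 to 0.97 and 0.68 to 1.18 FPKM.

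**Figure D1:**
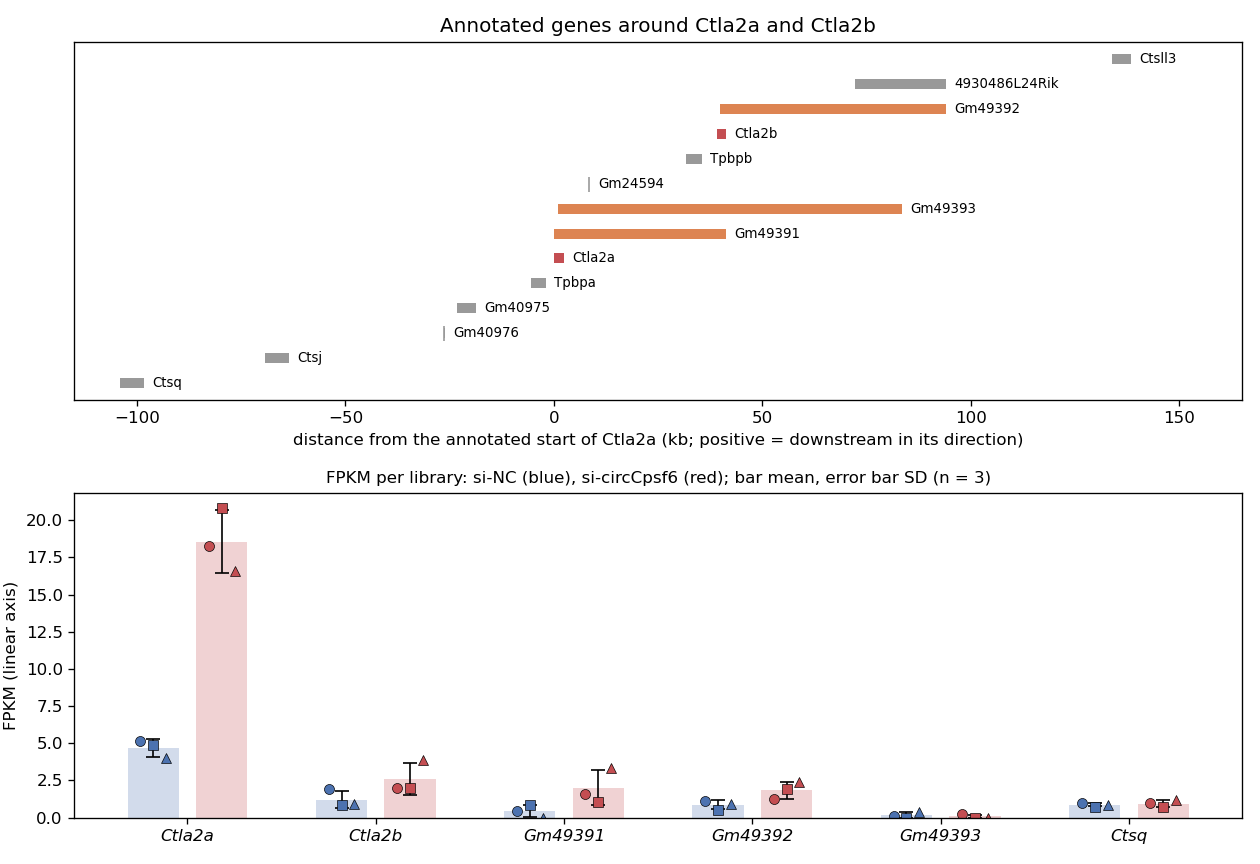
Top, annotated genes around Ctla2a and Ctla2b by distance in kb from the start of Ctla2a; bottom, FPKM (linear axis) per library with mean bars and SD error bars (n = 3) for si-NC (blue) and si-circCpsf6 (red), circles, squares and triangles standing for replicates 1, 2 and 3. The si-circCpsf6 libraries sit between 16.61 and 20.8 FPKM for Ctla2a, and no overlapping gene exceeds 3.33 FPKM.

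The lysosomal endopeptidase gene Ctsl (chr13:64359337-64370890, GRCm38) was the cathepsin with the largest fitted difference. Its values were 5.47, 10.34 and 4.95 FPKM in si-NC and 13.38, 13.16 and 15.48 FPKM in si-circCpsf6. The groups did not overlap, but si-NC replicate 2 was nearly at the si-circCpsf6 level. Means were 6.92 ± 2.97 and 14.01 ± 1.28 FPKM, and the log2 fold change was 0.98 ± 0.245 (SE) and not called. It was called without si-NC replicate 2, with a log2 fold change of 1.27.

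Ctsb (chr14:63122462-63145923) encodes cathepsin B, which acts as endopeptidase and as carboxydipeptidase, and was at 90.65, 86.75 and 83.39 FPKM in si-NC and at 159.09, 93.3 and 110.21 FPKM in si-circCpsf6. The groups did not overlap, although si-circCpsf6 replicate 2 was close to si-NC replicate 1, and si-circCpsf6 replicate 1 stood far above the others. The log2 fold change was 0.44 ± 0.202 (SE), not called, and came to 0.22 without si-circCpsf6 replicate 1. Ctsb overlaps the cholesterol synthesis gene Fdft1 over 774 bases on the opposite strand, and Fdft1 also had its highest value in that library, 77.19 FPKM against 17.4 to 39.02 FPKM in the other 5. The strand setting of the counting is not known, and without strand, reads of that overlap cannot be told apart.

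Ctsz (chr2:174427493-174439039), which encodes the carboxypeptidase cathepsin Z (also known as cathepsin X), was at 92.77, 84.76 and 87.2 FPKM in si-NC and at 143.91, 111.48 and 129.46 FPKM in si-circCpsf6. All si-circCpsf6 values lay above all si-NC values, with a log2 fold change of 0.53 ± 0.142 (SE), not called. The si-NC libraries were tight for both abundant cathepsins, with a coefficient of variation of 4.7% for Ctsz and 4.2% for Ctsb against a median of 13.9% over all genes tested. In si-circCpsf6 these were 12.7% and 28.3%, against a median of 18.4%.

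Ctsf (chr19:4855130-4860918), whose propeptide carries a cystatin-like domain, was low and overlapped between groups, at 0.66, 1.17 and 0.86 FPKM in si-NC and 1.66, 1.09 and 1.43 FPKM in si-circCpsf6 (log2 fold change 0.34 ± 0.186, SE, not called). The remaining cathepsin genes were nearly silent and were not tested. Ctsh (chr9:90054152-90076089), an aminopeptidase, was at 0.01 to 0.05 FPKM in si-NC and 0.04 to 0.05 in si-circCpsf6, and Ctsc (chr7:88278085-88310888), which activates serine proteases of immune granules, at 0.03 to 0.04 and 0.01 to 0.02 FPKM. The Ctsc groups did not overlap and the Ctsh groups did. The number of reads behind such values is unknown, and no fold is read from them.

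Neither cystatin gene was called, and both overlapped between groups. Cst3 (chr2:148871722-148875692), which encodes the secreted cystatin C, was at 106.67, 86.73 and 100 FPKM in si-NC and 108.94, 61.44 and 95.44 FPKM in si-circCpsf6. The lowest value was in si-circCpsf6 replicate 2, and the log2 fold change of -0.18 ± 0.222 (SE) was not called and turned to 0.065 without that library. Cstb (chr10:78425669-78427622), which encodes cystatin B of the cytosol and nucleus, was at 88.68, 131.74 and 86.22 FPKM in si-NC and 110.23, 93.9 and 89.89 FPKM in si-circCpsf6. Its highest value was in si-NC replicate 2, with a log2 fold change of -0.04 ± 0.194 (SE), not called, that turned to 0.16 without that library and to 0.02 without si-circCpsf6 replicate 3.

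**Figure D2:**
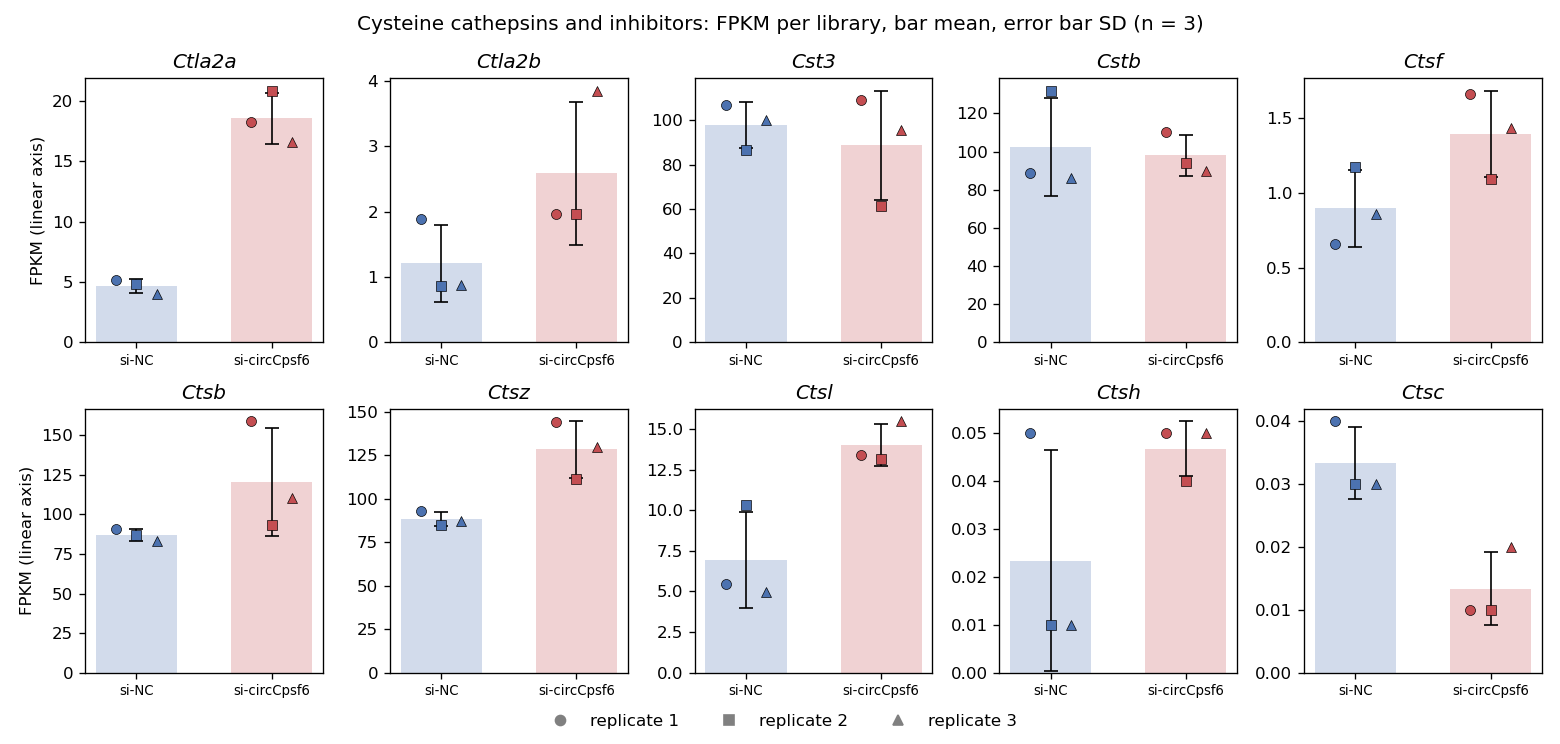
FPKM (linear axes starting at 0, scaled per gene) of the 10 genes in each library, with mean bars and SD error bars (n = 3); circles, squares and triangles are replicates 1, 2 and 3. Ctla2a, Ctsz, Ctsl, Ctsb and Ctla2b show separate groups, Cst3 and Cstb overlap, and Ctsh and Ctsc stay at or below 0.05 FPKM.

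By level in si-NC, Cstb (102 ± 25.6 FPKM), Cst3 (97.8 ± 10.2), Ctsz (88.2 ± 4.11) and Ctsb (86.9 ± 3.63) came first, and no neighbours in that order differed beyond their spread. Far below them followed Ctsl and Ctla2a, whose si-NC ranges overlapped, then Ctla2b (1.21 ± 0.589) and Ctsf (0.897 ± 0.257), also overlapping. In si-circCpsf6 the means ran from Ctsz (128 ± 16.2 FPKM) and Ctsb (121 ± 34.2) to Cstb (98.0 ± 10.8) and Cst3 (88.6 ± 24.5), and here too the ranges of neighbours overlapped, Ctsb lying just below Cstb in replicate 2. Ctla2a lay above Ctsl in each si-circCpsf6 library. The ratio of Ctla2a to Ctsl was 0.942, 0.469 and 0.806 in si-NC and 1.36, 1.58 and 1.07 in si-circCpsf6. Each of the abundant genes Ctsz, Ctsb, Cstb and Cst3 had a higher mean over the 6 libraries than at least 96.9% of all genes tested.

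Of the 8 tested genes, 5 had all si-circCpsf6 values above all si-NC values (Ctla2a, Ctla2b, Ctsb, Ctsl and Ctsz), as had 12.8% of all genes tested, and none the reverse. Their log2 fold changes were above 0 in 6 of 8 cases with a median of 0.48, and above 0 in 6128 of all 12974 genes tested, with a median of -0.02. These genes were put together with the Ctla2a difference in view, so the counts are a description.

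**Figure D3:**
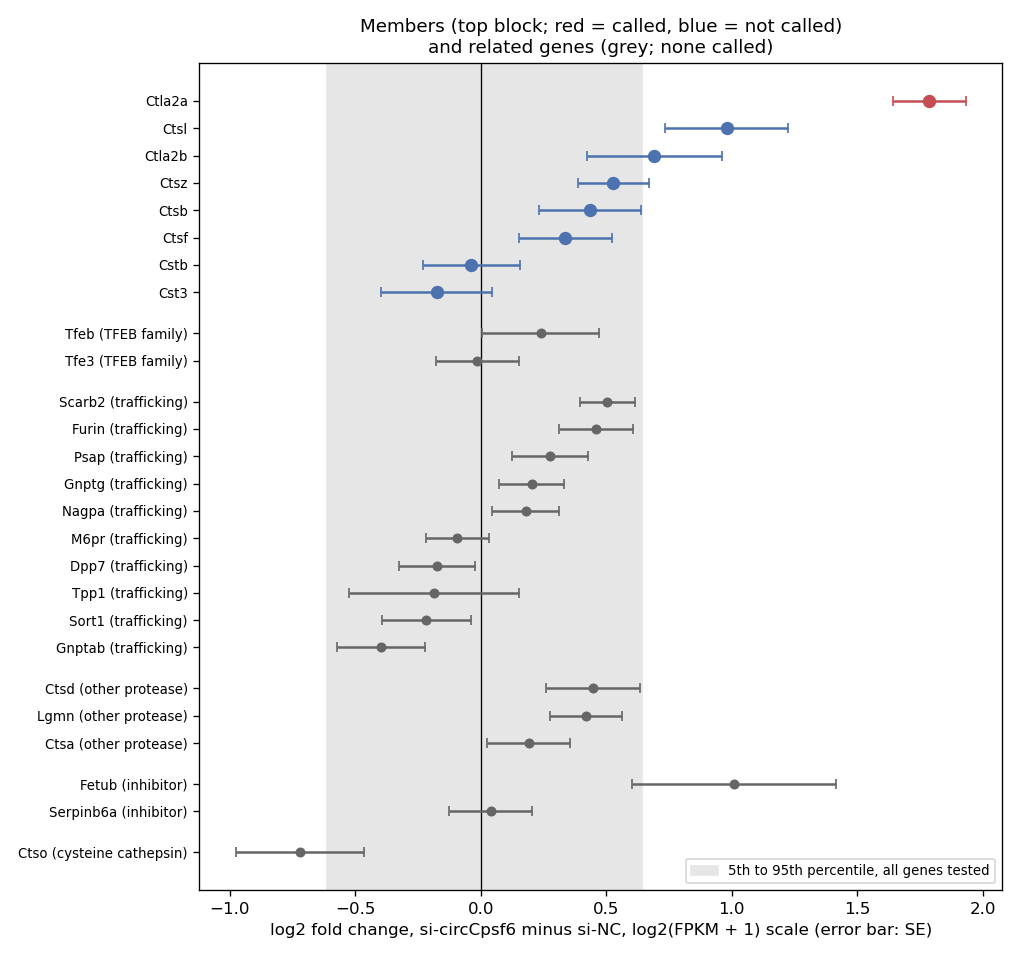
Log2 fold change of si-circCpsf6 minus si-NC on the log2(FPKM + 1) scale with standard errors (n = 3 per group), for the 8 tested genes of the group (top block, red called, blue not called) and for related genes (grey, none called). Grey shading spans the 5th to 95th percentile of all genes tested, -0.61 to 0.64, with Ctla2a, Ctsl and Ctla2b of the group and the related gene Fetub (1.01) above it and Ctso (-0.72) below it.

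Summed over the 6 cathepsin genes, the libraries held 189.6, 183.1 and 176.4 FPKM in si-NC and 318.1, 219.1 and 256.7 FPKM in si-circCpsf6. Ctsb and Ctsz made up 93.4% to 96.7% of these sums, so the sum is mainly theirs. Cst3 and Cstb together held 195.4, 218.5 and 186.2 FPKM in si-NC and 219.2, 155.3 and 185.3 FPKM in si-circCpsf6, with overlapping groups. The ratio of cathepsin to cystatin FPKM was 0.971, 0.838 and 0.948 in si-NC and 1.45, 1.41 and 1.39 in si-circCpsf6. It was below 1 in each si-NC library and varied little within si-circCpsf6 (1.42 ± 0.0336, SD, n = 3), both sums being highest in replicate 1 and lowest in replicate 2. With Ctla2a and Ctla2b counted among the inhibitors, the ratio was 0.892 ± 0.0659 and 1.27 ± 0.0529, and the CTLA2 genes supplied 2.55% to 3.48% of inhibitor FPKM in si-NC and 8.44% to 12.8% in si-circCpsf6. These are ratios of RNA levels, and neither protein nor enzyme activity was measured in the files analysed.

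**Figure D4:**
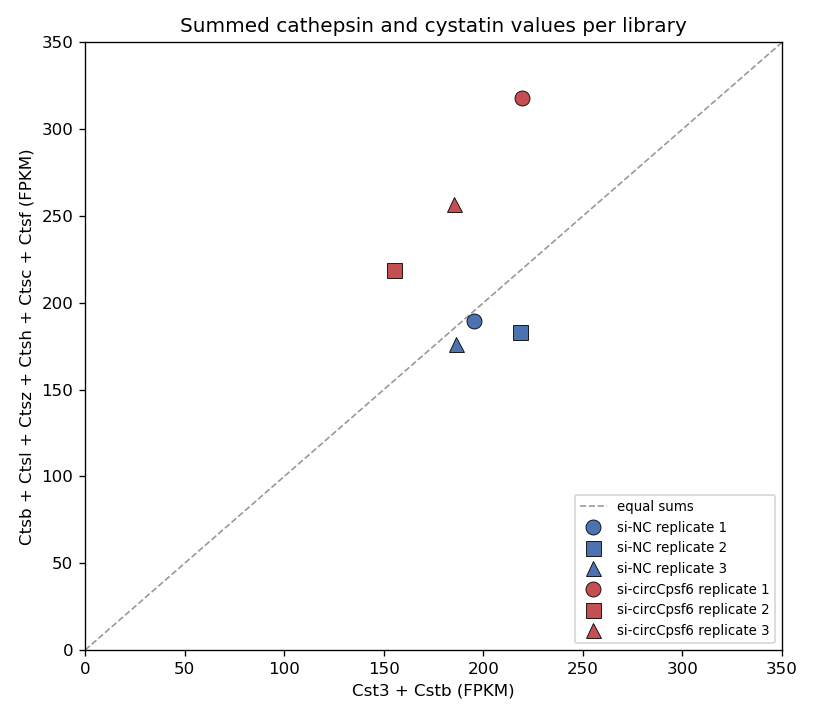
Summed FPKM of the 6 cathepsin genes against summed FPKM of Cst3 and Cstb in each library, both axes linear from 0, with a dashed line where the sums are equal. The 3 si-NC libraries (blue) lie below the line, at ratios of 0.838 to 0.971, and the 3 si-circCpsf6 libraries (red) above it, at 1.39 to 1.45.

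Other genes of the same pathway were read from the same fit. Of 13 other cysteine cathepsin genes, 8 were listed at 0 throughout and 1 was tested: Ctso was at 2.38, 4.87 and 2.54 FPKM in si-NC and 1.45, 1.1 and 2.05 FPKM in si-circCpsf6, lower in all 3 libraries, and did not pass (log2 fold change -0.72 ± 0.255, SE; limma adjusted p = 0.175). Its direction was opposite to that of Ctsl, Ctsb and Ctsz. Of 28 other protease inhibitor genes, mostly of the cystatin superfamily or the serpins, 26 were in the table, 14 of those at 0 throughout, and 2 were tested. A place in this list does not show that a product inhibits cysteine proteases. Fetub, which encodes the cystatin-superfamily protein fetuin-B, was at 11.27, 8.71 and 7.24 FPKM in si-NC and 12.49, 39.73 and 13.58 FPKM in si-circCpsf6, where replicate 2 stood apart (limma adjusted p = 0.222). Serpinb6a was at 2.88 ± 0.555 and 2.97 ± 0.404 FPKM (limma adjusted p = 0.923).

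Ctsd and Lgmn, lysosomal proteases of another class or family, had higher mean FPKM than any cathepsin of the group. Ctsd, an aspartic protease, was at 335.54, 395.78 and 297.21 FPKM in si-NC and 555.91, 412.34 and 437.92 FPKM in si-circCpsf6 (log2 fold change 0.45 ± 0.187, SE; limma adjusted p = 0.235). Legumain, encoded by Lgmn, which cleaves cathepsins to their mature chains, was at 244.51, 202.85 and 214.72 FPKM and at 307.01, 281.08 and 296.1 FPKM (log2 fold change 0.42 ± 0.142, SE; limma adjusted p = 0.163). In both genes the groups did not overlap, and neither passed the test; all 3 tested genes of this list had estimates above 0, with a median of 0.42 and none called. Of 10 tested genes for sorting and activation of lysosomal enzymes, none was called and 5 had estimates above 0 (median 0.04). Among them Psap, which encodes the saposin precursor, was at 280.2 ± 22.2 and 339.9 ± 34.6 FPKM and Gnptg, a subunit of the enzyme that makes the mannose 6-phosphate tag, at 29.0 ± 2.19 and 33.6 ± 3.22 FPKM (limma adjusted p = 0.358 and 0.434). Scarb2, the nearest to a call, was at 23.05 ± 0.729 and 33.1 ± 0.611 FPKM (limma adjusted p = 0.0681). Psap, Scarb2 and Furin had all si-circCpsf6 values above all si-NC values, as had 12.8% of all genes tested. No tested gene of this list showed the reverse. Of the TFEB family, Tfe3 was at 7.01 ± 1.21 and 6.93 ± 1.104 FPKM and Tfeb at 1.33 ± 0.605 and 1.71 ± 0.442 FPKM (limma adjusted p = 0.976 and 0.611).

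The 5 tested genes with values most like Ctla2a over the 6 libraries, by Pearson's r of log2(FPKM + 1), were Them4 (0.998), Zbtb7b (0.998), Brd9 (0.997), Dffa (0.994) and Jmy (0.993). Zbtb7b, a transcription factor of T cell lineage choice, was at 4.63 ± 0.601 and 10.7 ± 0.731 FPKM, and Them4, a mitochondrial thioesterase, at 1.45 ± 0.154 and 3.61 ± 0.182 FPKM. These r mostly reflect the step between the groups, and 205 genes exceeded 0.95. None of these 5 is a protease or protease inhibitor gene.

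The heptamer GCAGAAT, picked in an earlier search of these libraries for its link to lower values in si-circCpsf6, stood in the longest annotated 3′ UTR of 1 gene of the group, Ctsl (1 copy in 4764 bases), and of 11.1% of 10678 tested genes with a UTR of at least 50 bases. Cst3 and Cstb had the shortest 3′ UTRs, 241 and 186 bases, and did not carry it.

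**Figure D5:**
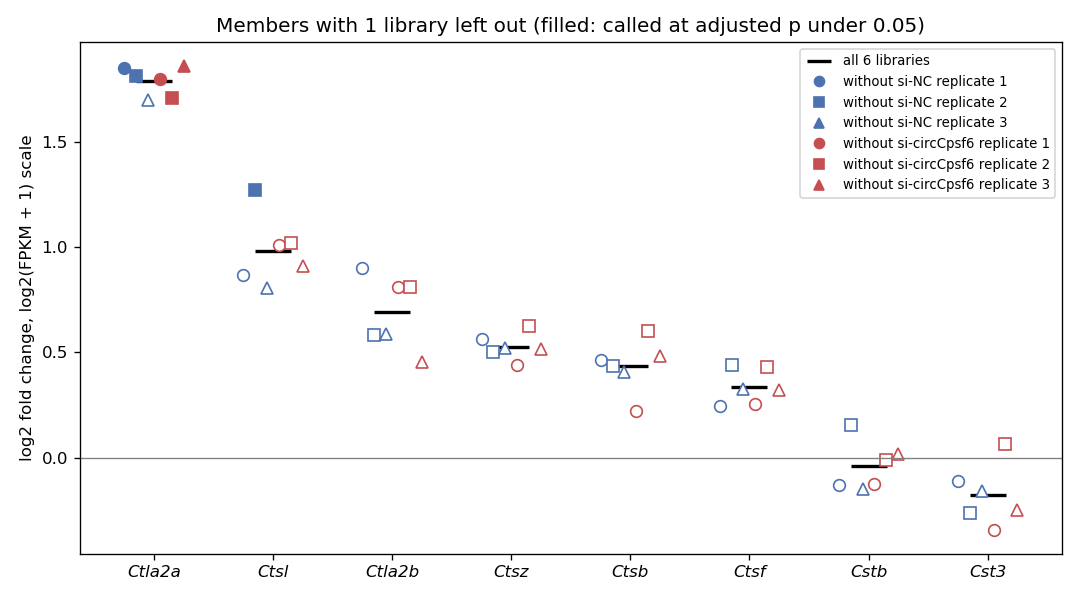
Log2 fold change, log2(FPKM + 1) scale, of the 8 tested genes with all 6 libraries (black bars) and with each library left out (circles, squares and triangles for replicates 1, 2 and 3; blue, si-NC left out; red, si-circCpsf6 left out; filled where called). Ctla2a stays between 1.70 and 1.86, Ctsl between 0.81 and 1.27, and Cstb and Cst3 fall on both sides of 0.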

How the data were processed

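RNA of 6 libraries of N2A cells was sequenced on an Illumina instrument, and the labels' protocols name a small RNA kit. The authors deposited 1 table with FPKM per gene and library, rounded to 2 decimals, per the file headers. Further columns give a ratio (the authors' fold change) and its log2, and, per the file headers, a p-value and a q-value for each gene. The aligner Bowtie (0.12.2) and, as builds, mm8 and mm9 appear in the submitters' processing notes without a role. No source used here names the program behind FPKM or its strand setting. Read counts were not recovered, so the counting error of a low value is unknown.

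Groups came from sample titles. limma 3.58.1 (R 4.3.3) was fitted to log2(FPKM + 1) of the 12974 genes that averaged 1 FPKM or more. The model held the group alone and an intensity trend, and p-values were adjusted over all these genes (Benjamini-Hochberg, threshold 0.05). The fit was tested on simulated data with independent noise in each library, which cannot show how it handles effects shared by same-numbered libraries. An exact permutation test of 3 against 3 cannot reach 0.05 and was not used. Members, gene lists and motifs were chosen with earlier results of these data known. All 10 members are named, and some marker genes are not reported here. Of each related list, the genes that passed are named, or else the 2 with the highest mean. Hand2, Pdgfra, Col1a1, Col1a2, Col3a1, Dcn, Lum, Tyrobp, Scarb2, Furin and the marker genes at or near 0 were named in addition after their values were seen. Neighbours and overlapping genes were named by position. Gene positions are from GENCODE M21 (GRCm38), matched by gene identifier, and upstream sequences from RefSeq (GRCm38.p6). Alignments and figures used Python 3.11.15, Biopython 1.88 and matplotlib 3.10.9. Each library was left out in turn. Other alternatives were a replicate block, no intensity trend, no filter or a minimum mean of 5 FPKM, a pseudocount of 0.1, quantile normalization, median centring, and the authors' values.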

Additional observations from a re-analysis of the deposited data

How the results depend on the processing

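Over all genes, 219 calls became 13 with no filter on low values, 11 with the replicate number as a block, 816 by the authors' q-values over all genes in the table, and 3 to 87 with 1 library left out. Same-numbered libraries deviated together with r of 0.103, 0.129 and 0.084, and each library correlated best with its own number. Col1a1 also followed the number, being highest in replicate 1 and lowest in replicate 2 of both groups. The main fit nonetheless did not take the numbers as pairs, so its standard errors do not account for such sharing. Whether same-numbered libraries share a batch was not tested. The block changed no call among the genes of the group (Ctla2a stayed called, log2 fold change 1.79). Ctla2a was called in 5 of 6 fits with a library left out (1.70 to 1.86) and lost its call without si-NC replicate 3 (1.70). Ctsl was called without si-NC replicate 2 (1.27) and by the authors' q-value (their log2 fold change 1.02), with a range of 0.81 to 1.27. Ranges with a library left out were 0.45 to 0.90 for Ctla2b, 0.22 to 0.60 for Ctsb, 0.44 to 0.63 for Ctsz and 0.25 to 0.44 for Ctsf, none called. Cst3 ranged from -0.34 to 0.065 and Cstb from -0.15 to 0.16, turning sign without si-circCpsf6 replicate 2 (Cst3, 0.065), si-NC replicate 2 (Cstb, 0.16) and si-circCpsf6 replicate 3 (Cstb, 0.02). Ctsh (0.03, untested) read 0.27 with a pseudocount of 0.1 and 0.95 by the authors' values, and Ctsc (-0.03, untested) -0.24 and -1.13, the pseudocount setting the scale at such levels. Ctla2b and Ctsf have no value with a mean of at least 5 FPKM, and Ctsh and Ctsc none under that filter, the scalings, the block or the fit with no trend. The causes of the other changes were not tested.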

Other observations

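The authors' deposited table marks Ctla2a, Ctla2b and Ctsl as significant among the 10 genes, with fold changes of 3.98, 2.14 and 2.02 and q-values of 0.00, 0.24 and 0.01. In that table all 954 genes so marked have a p-value no higher than 0.05 and a log2 fold change of size 1 or more, while 816 genes have a q-value under 0.05, so the mark does not follow the q-value. Ctsb and Ctsz are not marked there, at fold changes of 1.39 and 1.45.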
